A study of Mus musculus with 17 samples.

Results

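Macrophages grown from mouse bone marrow were put into medium taken from B16F10 melanoma cells, and the comparison here is between that conditioned medium with extra sodium chloride (2 libraries) and the same medium without it (3 libraries). These 5 libraries are among the 17 in the series, and they were chosen by their treatment labels, with every gene that passed a low-count filter as a member (14519 of 55401 listed identifiers). All 5 came from cells of C57BL/6J mice, cultured in DMEM with fetal bovine serum, with 6 h in conditioned medium. The labels give 40 mM as the final NaCl concentration. Whether this is the amount added on top of the medium's own salt is not stated. Another 3 C57BL/6J libraries had KCl at 40 mM in the conditioned medium, which is the same concentration of a salt with another cation, and 3 came from a control group whose medium the labels do not describe. No label says whether replicates came from separate mice or cultures, so the p-values cover just the spread among these libraries, and that spread may be technical.

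B16F10 cells are a line from a mouse melanoma, and the medium they have grown in carries what they shed. Added salt makes a medium hypertonic: water leaves the cells, and over hours they replace the extra internal ions with small organic solutes (osmolytes) such as myo-inositol, betaine, taurine and sorbitol. NFAT5, also called TonEBP, is the transcription factor best known for this switch, and it turns on the transporters and enzymes that gather those solutes. In macrophages, high salt has been studied for its effect on inflammatory activation, on nitric oxide production and on alternative activation.

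Each value below is a level in CPM (a gene's counts scaled to a common library size, with TMM factors over the 11 C57BL/6J libraries), unless it is called a log2 fold change, which is a difference (NaCl minus conditioned medium alone) with its standard error (SE). A gene is said to rise or fall where its adjusted p in edgeR's quasi-likelihood test was under 0.05. RNA was taken from all cells of a culture, so fewer cells of a type and less RNA per cell cannot be told apart.

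The libraries held 19391623 and 17499587 counts with NaCl and 15458703 to 16460805 without it. Of 12 macrophage markers all were tested, and their summed level was 31217 to 31761 CPM with NaCl and 30794 to 32802 CPM without. Lyz2, the macrophage lysozyme, stood at 22528 and 21993 CPM with NaCl and 23301, 21319.6 and 21492 CPM without, so macrophage markers were abundant in both groups. Of the melanocyte genes, Tyr and Dct had 0 counts in each of the 5 libraries (a count of 0 allows up to 3 counts, for counting error alone), Tyrp1 0 to 1, Mlana 0 to 3, Sox10 1 to 5 and Pmel 1 to 10. Mitf and Gpnmb of the same list were not low. Mitf had 2819, 3001 and 3109 counts without NaCl and 4286 and 4141 with it. Gpnmb, also in the lysosome list below, had 65314, 67301 and 74733 against 94656 and 89301. The part of melanoma cells in these counts was not tested. A difference between the groups was also seen in transcript length: the slope of a library's log2 level on log2 length was 0.065 and 0.137 with NaCl and −0.024, 0.012 and 0.060 without, with no overlap, and its part in the results was not tested beyond a fit with that slope as a covariate.

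Across all genes, 4161 of 14519 changed with NaCl (28.7%), 1996 up (13.7%) and 2165 down (14.9%). The shares of every list below are to be set beside these 13.7% and 14.9%. Lists and members were chosen with earlier results of these data known, so their shares describe the lists and are no independent test. At least 2-fold changes were 388 up (2.67%) and 625 down (4.3%), so large changes were more often decreases. The libraries of the 2 groups did not overlap for 60.7% of genes, and the median log2 fold change over all genes was −0.01. With library totals in place of TMM, 37.0% of the calls were increases, against 48.0% with TMM. Without NaCl 1 the test called 2660 genes and without NaCl 2 it called 2280, and 1915 of the 4161 genes were called in the same direction under each of 13 alternatives.

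**Figure D1:**
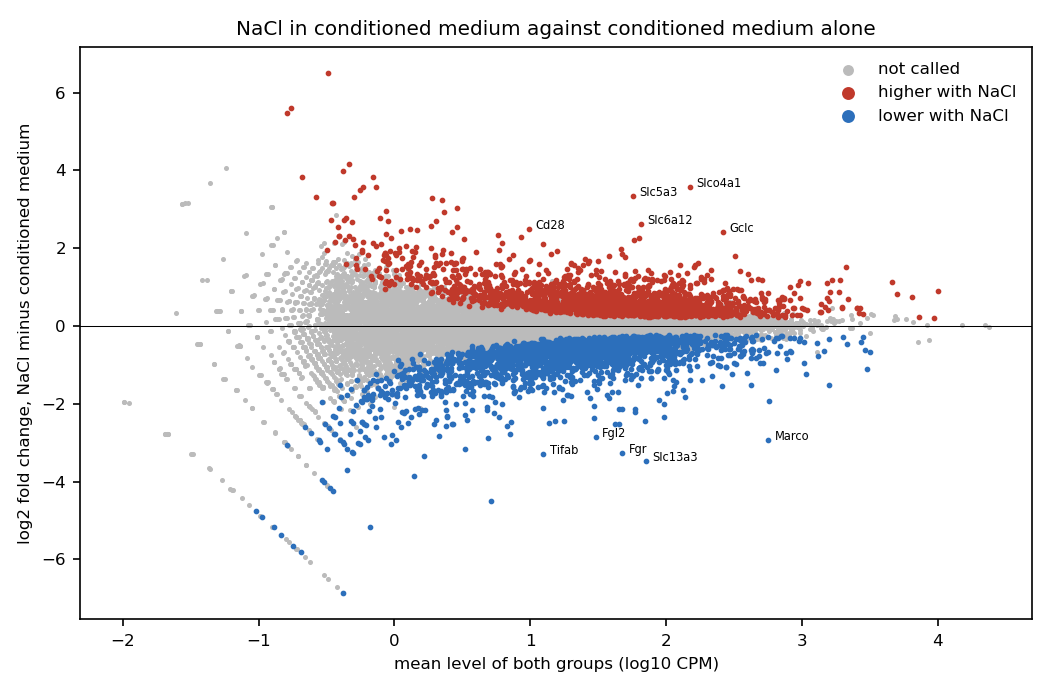
Log2 fold change with NaCl against the mean level of both groups (log10 CPM), 1 point per gene; red points rose, blue points fell and grey points were not called. The 5 highest and 5 lowest named genes are labelled: Slco4a1 and Slc5a3 stand above 3, and Slc13a3, Tifab and Fgr below −3.

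The largest named change belonged to a transporter. Genes named by the rank of their fold change had to show no overlap between the 2 groups, so their separation was set by that choice. Slco4a1, an organic anion transporter that carries thyroid hormone among other substrates, stood at 21.8, 21.4 and 25.7 CPM in conditioned medium alone and 259.9 and 291 CPM with NaCl. Every NaCl library was far above every library without it, and the log2 fold change was 3.58 (SE 0.14 and adjusted p = 7.30e-09). Dio2, the deiodinase that activates thyroid hormone, rose from 20.4, 21.3 and 21.0 CPM to 89.0 and 103 CPM, with no overlap (log2 fold change 2.20, SE 0.13 and adjusted p = 1.19e-07). At the other end was Slc13a3, a sodium-coupled carrier of succinate and other dicarboxylates, with 134, 125 and 132 CPM without added salt and only 12.9 and 10.6 CPM with NaCl. Its log2 fold change was −3.47 (SE 0.17 and adjusted p = 2.35e-08), the lowest of the named genes, and it lies on chr2:165405028-165473230, minus strand (GRCm38, GENCODE M21).

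Genes that gather osmolytes rose more often than the genes of the table as a whole. Of 21 listed genes of osmolyte uptake, synthesis and breakdown, all tested, 9 rose (42.9%, against 13.7% of all genes) and 4 fell (19%), with a median log2 fold change of 0.25. Slc5a3, the myo-inositol transporter on chr16:92058322-92087473, plus strand, stood at 10.4, 10.4 and 9.78 CPM without added salt and 93.4 and 113 CPM with NaCl, so both NaCl libraries were several times above the rest (log2 fold change 3.34, SE 0.14 and adjusted p = 7.30e-09). It lies within Mrps6, on the same strand, and Mrps6 also rose (log2 fold change 1.98), so reads of the pair may be split between them. Slc6a12, the betaine transporter, went from 18.7, 17.8 and 18.3 CPM to 110.0 and 113 CPM, again with no overlap (log2 fold change 2.61, SE 0.11 and adjusted p = 7.30e-09).

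The sequence upstream of the start of transcription was read for the NFAT5 binding core, TGGAAA on either strand, since this list is the one its name points to. RefSeq windows (GRCm38.p6), searched over the 250 bases before the start, held it for 17.8% of the 10425 tested genes with a window, for 3 of 12 osmolyte genes with a window and for 5 of 23 genes of NFAT5 and osmotic signalling. A pair of members that rose is shown because each carries the core, in capitals, upstream of an annotated start: 1 of 5 windows of Slc6a12 held it and 2 of 6 of Sgk1, so most of their starts did not. They lie at chr6:121342472-121342531 (plus strand, match 75 bases before the start) and chr10:21882052-21882111 (plus strand, 105 bases, core on the opposite strand).
Slc6a12: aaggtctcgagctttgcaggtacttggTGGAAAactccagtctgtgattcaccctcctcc
Sgk1: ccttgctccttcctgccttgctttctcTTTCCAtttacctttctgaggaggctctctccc
A match describes these letters and is neither a bound site nor a cause.

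Other osmolyte genes rose less. Akr1b3, the aldose reductase that makes sorbitol, stood at 87.9, 80.9 and 82.4 CPM and 247 and 231 CPM (log2 fold change 1.51, SE 0.10 and adjusted p = 2.11e-07), and Slc38a2, a neutral amino acid transporter, at 107, 114 and 125 CPM and 290.1 and 336 CPM (log2 fold change 1.44, SE 0.09 and adjusted p = 2.11e-07). For both genes each NaCl library was above each library without NaCl. Slc44a2, a choline transporter-like protein, moved little, from 75.5, 74.4 and 79.2 CPM to 88.0 and 95.6 CPM (log2 fold change 0.27, SE 0.09 and adjusted p = 0.046), and it was not called with library totals (0.20, adjusted p = 0.217), with no low-count filter, with the length slope as a covariate or with any one of the 5 libraries left out, where adjusted p ran from 0.0676 to 0.296. Among the genes that fell, Gdpd5 was the lowest of the list (log2 fold change −1.78, with −2.88 without NaCl 1 and −1.20 without NaCl 2). Others were Gpcpd1, which breaks down the osmolyte glycerophosphocholine (−0.46), and Slc38a1, an amino acid transporter (−0.61). Of the 4 decreases, 0 held under each alternative. Gpcpd1 was not called without NaCl 1 (−0.41, adjusted p = 0.0712), nor was Slc38a1 (−0.53, adjusted p = 0.0755). The counts of 9 up and 4 down became 5 and 3 without conditioned medium library 1, 5 and 4 without library 2, 5 and 1 without NaCl 1, and 4 and 2 without NaCl 2.

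In the list of NFAT5 and osmotic signalling, 24 of 25 genes were tested. Of these, 5 rose (20.8%, against 13.7% of all genes) and 4 fell (16.7%, against 14.9%). Nfat5 itself stood at 38.0, 43.3 and 50.3 CPM without added salt and 73.5 and 87.6 CPM with NaCl, with no overlap (log2 fold change 0.87, SE 0.14 and adjusted p = 4.97e-04). Sgk1, a salt-responsive kinase, went from 109, 108 and 107 CPM to 245 and 255 CPM (log2 fold change 1.21, SE 0.10 and adjusted p = 2.62e-06), and Hspa4l, a chaperone named for its osmotic induction, from 23.2, 26.7 and 26.5 CPM to 49.5 and 56.3 CPM (log2 fold change 1.05, SE 0.11 and adjusted p = 2.00e-05). Map2k3, a kinase upstream of p38, rose as well (log2 fold change 0.59). Parp1, the DNA damage polymerase, fell from 60.3, 67.0 and 75.8 CPM to 32.4 and 34.7 CPM (log2 fold change −1.01, SE 0.12 and adjusted p = 4.45e-05). Mapk14, the p38 alpha kinase of the same pathway, fell a little (−0.36, SE 0.11 and adjusted p = 0.0216), and it was not called without NaCl 1 (−0.34, adjusted p = 0.136), without NaCl 2 (−0.38, adjusted p = 0.102) or without conditioned medium library 2 or 3. The list's decreases numbered 2 without either NaCl library.

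**Figure D2:**
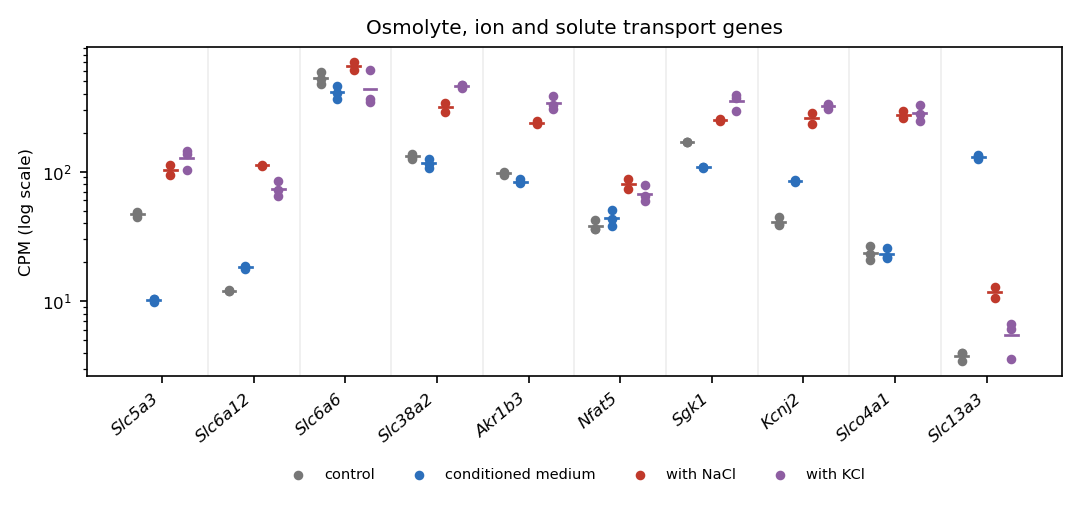
Level (CPM, log scale) of osmolyte, ion and solute transport genes, 1 point per library and a line at each group's mean; control grey, conditioned medium alone blue, with NaCl red, with KCl purple. Slc5a3, Slc6a12 and Slco4a1 are higher with NaCl than in conditioned medium alone in every library, and Slc13a3 is lower.

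Of 27 tested genes of the sodium pump, sodium exchangers and cation chloride cotransporters, 9 rose (33.3%, against 13.7% of all genes) and 4 fell (14.8%, against 14.9%). Slc13a3, described above, was among those that fell. Atp1b3, a beta subunit of the sodium pump, went from 589, 569.9 and 539 CPM to 914 and 905 CPM (log2 fold change 0.68, SE 0.07 and adjusted p = 1.64e-05), and it was higher in each NaCl library. Slc8b1, the mitochondrial sodium-calcium exchanger, rose as well (log2 fold change 0.73). Slc12a7, a potassium-chloride cotransporter, fell from 41.4, 42.9 and 47.0 CPM to 22.8 and 23.4 CPM (log2 fold change −0.92, SE 0.12 and adjusted p = 1.05e-04). Without NaCl 2 the counts were 5 up and 2 down, and with the length slope as a covariate 7 and 8.

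Channel genes fell more often. Of 32 tested genes of potassium, chloride and volume-sensing channels and aquaporins, 4 rose (12.5%) and 9 fell (28.1%), with a median of −0.23. Kcnj2 (channel Kir2.1, an inward rectifier for potassium) rose from 82.4, 84.8 and 85.5 CPM to 234 and 284 CPM (log2 fold change 1.62, SE 0.09 and adjusted p = 1.08e-07), with no overlap. Kcnk13, a 2-pore potassium channel, and Hvcn1, a proton channel, rose by 0.90 and 0.71 on the log2 scale. Kcnn4, a calcium-activated potassium channel, fell from 71.4, 71.6 and 72.0 CPM to 33.0 and 41.1 CPM (log2 fold change −0.95, SE 0.11 and adjusted p = 3.71e-05), and Trpv2, a cation channel, from 127, 118 and 129.6 CPM to 74.8 and 75.1 CPM (log2 fold change −0.74, SE 0.14 and adjusted p = 0.00168). The 9 decreases were 4 without NaCl 1 and 4 without NaCl 2.

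Antioxidant genes rose in large part. Of 36 tested genes of the NRF2 targets and glutathione list, 23 rose (63.9%, against 13.7% of all genes) and 2 fell (5.56%), with a median log2 fold change of 0.47. NRF2 (gene Nfe2l2) is the factor that drives genes of glutathione synthesis, thioredoxin and iron handling under oxidative stress. Gclc, the catalytic subunit of the enzyme that starts glutathione synthesis, stood at 77.3, 82.3 and 89.0 CPM and 418 and 460.0 CPM (log2 fold change 2.40, SE 0.11 and adjusted p = 1.32e-08), with the NaCl libraries far apart from the rest. Prdx6, a peroxiredoxin, went from 143, 149 and 136 CPM to 505 and 493 CPM (log2 fold change 1.80, SE 0.08 and adjusted p = 8.92e-09).

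Slc7a11, which brings in cystine for glutathione, stood at 1084, 1057 and 1141 CPM and 3014 and 3215 CPM (log2 fold change 1.51, SE 0.09 and adjusted p = 8.14e-08), and the iron exporter Slc40a1 at 115, 112 and 117 CPM and 256 and 274 CPM (log2 fold change 1.21, SE 0.07 and adjusted p = 1.52e-07). Both groups of libraries were well separated for these genes. Hmox1, the haem oxygenase, and Srxn1, which repairs peroxiredoxins, chosen after their values were seen, rose by 1.14 and 1.18 on the log2 scale. The decreases were Blvrb, a biliverdin reductase (log2 fold change −0.51, SE 0.08 and adjusted p = 4.11e-04), and Gpx1, a glutathione peroxidase (log2 fold change −0.31, SE 0.10 and adjusted p = 0.0372). Gpx1 lost its call without NaCl 1 (−0.32, adjusted p = 0.142), without NaCl 2 (−0.30, adjusted p = 0.185), without each conditioned medium library and with the length slope as a covariate (−0.17, adjusted p = 0.0776). Of the 25 calls, 19 increases and 1 decrease held under each alternative.

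The antioxidant response element, TGACNNNGC on either strand, was searched in the same windows. It was found for 14.1% of tested genes with a window, for 8 of 29 members of this list and for 5 of the 18 with a window that rose. Shown are 3 members that rose and hold the element, in capitals, on the opposite strand: Gclm at chr3:122245396-122245458 (134 bases before the start), Txnrd1 at chr10:82859087-82859149 (92 bases) and Prdx1 at chr4:116685439-116685501 (133 bases), all on the plus strand of GRCm38.p6. Gclm and Prdx1 have 1 window each, and the element is in 1 of 3 windows of Txnrd1.
Gclm: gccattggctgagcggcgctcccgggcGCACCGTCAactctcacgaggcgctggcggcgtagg
Txnrd1: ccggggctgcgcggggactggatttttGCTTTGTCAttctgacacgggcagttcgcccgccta
Prdx1: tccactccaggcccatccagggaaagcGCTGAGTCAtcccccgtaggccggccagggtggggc
Gclm, the modifier subunit of the same enzyme as Gclc, went from 618, 616 and 633 CPM to 1137 and 1118 CPM (log2 fold change 0.86, SE 0.07 and adjusted p = 1.61e-06), Txnrd1, a thioredoxin reductase, from 1292, 1325 and 1355 CPM to 2348 and 2538 CPM (0.88, SE 0.10 and adjusted p = 3.89e-05), and Prdx1, another peroxiredoxin, from 7567, 6953 and 6557 CPM to 13929 and 12389 CPM (0.91, SE 0.12 and adjusted p = 1.33e-04). Eid3 lies within Txnrd1 on the same strand and rose too (log2 fold change 1.83), so its reads may belong to Txnrd1.

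Interferon-stimulated genes rose as well, with exceptions. Of 52 tested, 26 rose (50%, against 13.7%) and 6 fell (11.5%), with a median of 0.39. Interferons, released after viral or nucleic acid sensing, raise these genes, and many of their promoters carry the interferon-stimulated response element. Rsad2, an antiviral radical SAM enzyme, stood at 81.3, 83.9 and 81.6 CPM and 251 and 236 CPM (log2 fold change 1.57, SE 0.10 and adjusted p = 2.11e-07), and its genomic neighbour Cmpk2, a nucleotide kinase, at 29.5, 33.8 and 35.8 CPM and 80.1 and 73.6 CPM (log2 fold change 1.22, SE 0.10 and adjusted p = 2.73e-06). The interferon-inducible GTPases Irgm1 and Irgm2 rose by 1.10 and 0.84 on the log2 scale. For each of these 4 genes the NaCl libraries were above those of conditioned medium alone.

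The element GAAA, any 2 bases, GAAA on either strand was found for 3.35% of tested genes with a window, for 22 of 41 members of the list and for 10 of the 19 with a window that rose. Shown in capitals, to place it, are 3 members that rose: Rsad2 at chr12:26456536-26456599 (minus strand, 120 bases before the start, element on the opposite strand), Irgm2 at chr11:58214886-58214949 (plus strand, 64 bases) and Igtp at chr11:58199495-58199555 (plus strand, 34 bases).
Rsad2: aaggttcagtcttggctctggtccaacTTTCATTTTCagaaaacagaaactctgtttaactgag
Irgm2: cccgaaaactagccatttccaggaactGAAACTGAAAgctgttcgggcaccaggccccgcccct
Igtp: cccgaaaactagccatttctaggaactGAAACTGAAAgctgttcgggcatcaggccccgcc
Igtp, another of these GTPases, rose by 0.73 on the log2 scale, but it overlaps Irgm2 on the same strand and the 2 cannot be fully told apart by counting.

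Members that fell were led by Ifi205, an interferon-inducible DNA-binding protein, from 47.4, 50.2 and 48.9 CPM to 29.8 and 27.9 CPM (log2 fold change −0.76, SE 0.12 and adjusted p = 4.32e-04). Zbp1, a nucleic acid sensor, fell too (log2 fold change −0.59, SE 0.14 and adjusted p = 0.00707), and it was not called without NaCl 2 (−0.55, adjusted p = 0.0766). Gbp5, a guanylate-binding protein, fell (log2 fold change −0.41, SE 0.11 and adjusted p = 0.0127) and lost its call without NaCl 1 (−0.39, adjusted p = 0.0942) or NaCl 2 (−0.42, adjusted p = 0.0831). The list's counts were 15 up and 3 down without NaCl 1, and 21 and 1 without NaCl 2.

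Inflammatory cytokines fell more often than they rose, while neutrophil-attracting chemokines went the other way. Of 34 tested cytokines and chemokines, 15 fell (44.1%, against 14.9%) and 4 rose (11.8%), with a median of −0.35. Il10, the anti-inflammatory cytokine, stood at 24.1, 24.9 and 21.6 CPM without and 4.24 and 4.13 CPM with NaCl, the most marked decrease of the list (log2 fold change −2.49, SE 0.23 and adjusted p = 4.93e-06). Il1b, which gives the interleukin-1 beta precursor, went from 4271, 4157 and 3861 CPM to 2008 and 1798 CPM (log2 fold change −1.11, SE 0.10 and adjusted p = 3.40e-06), and Il18, of the same family, from 48.8, 44.2 and 47.3 CPM to 16.7 and 17.1 CPM (log2 fold change −1.47, SE 0.16 and adjusted p = 1.95e-05). Lif, an interleukin-6 family cytokine, fell by 1.57 on the log2 scale. Il1b overlaps the antisense gene Il1bos, so its counts may include reads of the other strand.

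The 4 that rose were all CXC chemokines for neutrophils. Cxcl3 stood at 1248, 1162 and 1077 CPM and 2827 and 2490.5 CPM (log2 fold change 1.19, SE 0.13 and adjusted p = 1.99e-05), and Cxcl1 at 749.6, 700.4 and 682 CPM and 1596 and 1435 CPM (log2 fold change 1.09, SE 0.11 and adjusted p = 1.35e-05). Cxcl2 and Cxcl5 rose by 0.73 and 0.83 on the log2 scale, with no overlap between groups. Tnf, which encodes tumour necrosis factor, was at 2816, 2795 and 2749 CPM and 3241 and 3137 CPM and was not called (log2 fold change 0.19, SE 0.07 and adjusted p = 0.0674), though it was called by DESeq2 (0.20, adjusted p = 0.0183), in a fit of these 2 groups alone (0.20, adjusted p = 7.21e-04) and with the length slope as a covariate (0.23, adjusted p = 0.00713). Il6 was at 113, 107 and 94.0 CPM and 117 and 97.2 CPM, which overlap, and its log2 fold change was 0.03 (SE 0.26 and adjusted p = 0.943); with the length slope as a covariate it was called (0.52, adjusted p = 0.00121). The 15 decreases were 8 without NaCl 2.

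**Figure D3:**
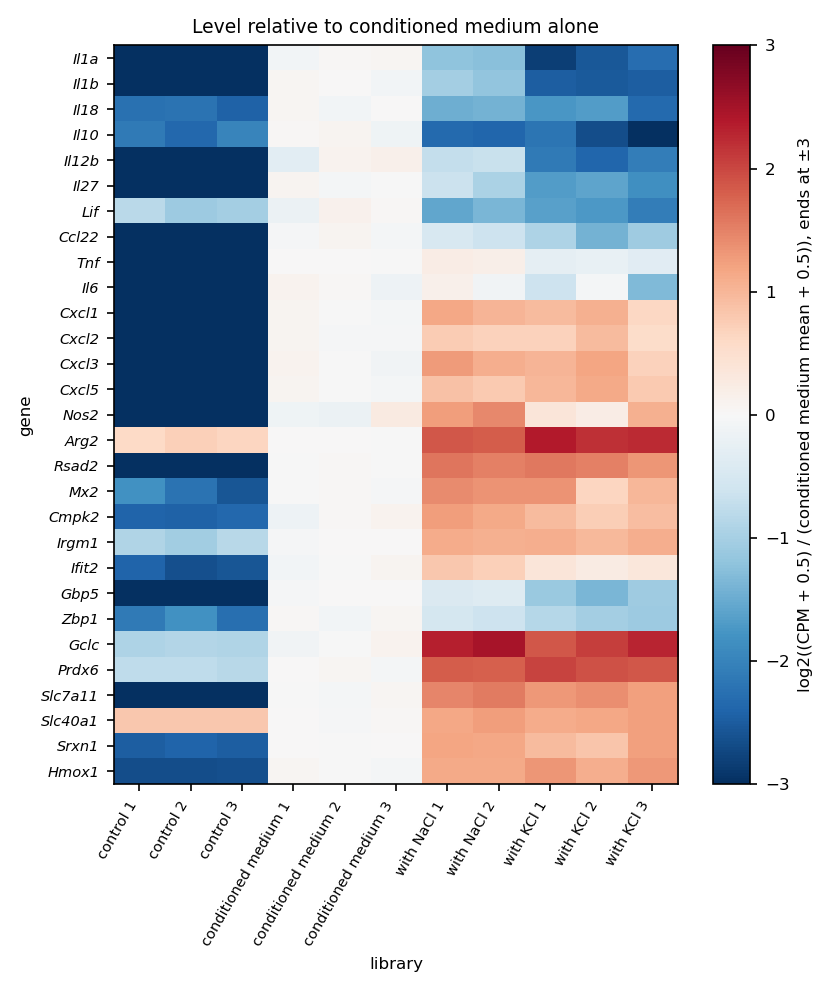
Level of cytokine, nitric oxide, interferon-stimulated and antioxidant genes in each of the 11 libraries, as the log2 ratio to the mean of conditioned medium alone (pseudocount 0.5 CPM, colours end at ±3). In the NaCl columns Il10, Il18 and Lif are blue, and Cxcl1, Rsad2, Gclc and Prdx6 are red.

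Regulators of NF-kB, the main inflammatory transcription factor, leaned down. Of 28 tested, 9 fell (32.1%) and 5 rose (17.9%), with a median of −0.10. Ikbke, an interferon-pathway kinase, went from 303, 295 and 324 CPM to 176 and 169.8 CPM (log2 fold change −0.83, SE 0.09 and adjusted p = 1.63e-05) and Tnfaip2 from 1745, 1736 and 1809.6 CPM to 1116 and 1129 CPM (log2 fold change −0.65, SE 0.08 and adjusted p = 4.43e-05). Nfkb1, a subunit, rose from 364, 358 and 373 CPM to 478 and 515 CPM (log2 fold change 0.44, SE 0.08 and adjusted p = 9.73e-04). In each case the groups did not overlap. The counts of 9 down and 5 up were 5 and 3 without conditioned medium library 1, 4 and 4 without library 2, 3 and 3 without NaCl 1, and 3 and 2 without NaCl 2.

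Inflammasome genes, which process interleukin-1 beta and drive pyroptosis, moved both ways: of 22 tested, 8 fell (36.4%) and 6 rose (27.3%), with a median of −0.35. Pycard, the adaptor of the complex, went from 18.8, 19.4 and 15.2 CPM to 8.58 and 5.89 CPM (log2 fold change −1.29, SE 0.21 and adjusted p = 4.68e-04). Txnip, a binder of thioredoxin, went from 226, 227 and 223 CPM to 106 and 114 CPM (log2 fold change −1.04, SE 0.11 and adjusted p = 2.11e-05). Both were lower in each NaCl library. Casp4, which senses lipopolysaccharide inside cells, rose from 78.2, 82.7 and 78.3 CPM to 149 and 139 CPM (log2 fold change 0.85, SE 0.07 and adjusted p = 3.23e-06), as did Panx1, a membrane channel (1.19, SE 0.12 and adjusted p = 9.77e-06), and Aim2, a DNA sensor (0.53). Without NaCl 1 the counts were 5 down and 5 up.

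Of 20 tested genes of arginine, nitric oxide and polyamine metabolism, 5 rose (25%, against 13.7% of all genes) and 2 fell (10%, against 14.9%). Nos2, the inducible nitric oxide synthase, stood at 11.3, 10.9 and 14.9 CPM without and 30.2 and 34.3 CPM with NaCl, with no overlap (log2 fold change 1.38, SE 0.24 and adjusted p = 8.65e-04). Arg2, the mitochondrial arginase, went from 6.52, 6.59 and 6.42 CPM to 25.1 and 24.3 CPM (log2 fold change 1.92, SE 0.11 and adjusted p = 7.96e-08), although it overlaps Vti1b on the other strand. Both enzymes use arginine, and both rose. Sat1, which breaks down polyamines, rose by 1.01 on the log2 scale, while Azin1, which keeps ornithine decarboxylase active, fell (−0.58, SE 0.14 and adjusted p = 0.00839) and was not called without NaCl 1 (−0.58, adjusted p = 0.0603) or NaCl 2 (−0.57, adjusted p = 0.0748). Arg1, the other arginase, did not pass the low-count filter. The 5 increases were 3 without conditioned medium library 2 or 3 and without either NaCl library.

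Listed markers of alternative activation showed no common direction. Of 24 tested, 4 rose (16.7%, against 13.7% of all genes) and 3 fell (12.5%, against 14.9%), which is near those shares. Tgfbi, a secreted matrix protein, fell from 161, 157 and 166 CPM to 30.7 and 32.9 CPM (log2 fold change −2.34, SE 0.13 and adjusted p = 7.09e-08), and Socs1, an inhibitor of cytokine signalling, fell by 1.11 on the log2 scale. Clec7a, the beta-glucan receptor, rose from 418, 429.7 and 396 CPM to 656 and 623 CPM (log2 fold change 0.63, SE 0.08 and adjusted p = 6.79e-05). The mannose receptor Mrc1 rose (log2 fold change 0.50, SE 0.11 and adjusted p = 0.00473) and was not called without NaCl 2 (0.37, adjusted p = 0.0986). Without NaCl 1 the counts were 2 up and 2 down, and with the length slope as a covariate 4 and 8.

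Surface receptors of uptake fell more often than they rose. Of 39 tested scavenger, Fc, complement and phagocytic receptors, 14 fell (35.9%) and 7 rose (17.9%), with a median of −0.28. Marco, a scavenger receptor for bacteria and particles, stood at 1069, 975 and 952 CPM without added salt and 143 and 120.2 CPM with NaCl, with the 2 groups several-fold apart (log2 fold change −2.93, SE 0.17 and adjusted p = 1.48e-07). Fcgr2b, the inhibitory Fc receptor, went from 402, 379.5 and 374 CPM to 138 and 128 CPM (log2 fold change −1.54, SE 0.11 and adjusted p = 4.41e-07). Cd300e, an activating receptor of myeloid cells, went from 114, 116 and 123 CPM to 24.3 and 19.2 CPM (log2 fold change −2.44, SE 0.14 and adjusted p = 8.14e-08). Fcgr1, the high-affinity Fc receptor, fell by 1.18 and C5ar1, the receptor of complement C5a, fell by 1.06 on the log2 scale.

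Against these, Olr1, the receptor for oxidised low-density lipoprotein, rose from 9.18, 9.17 and 11.5 CPM to 28.2 and 31.5 CPM (log2 fold change 1.58, SE 0.13 and adjusted p = 2.35e-06), and Cd36, another lipid scavenger, from 1197, 1252 and 1253 CPM to 1906 and 1974 CPM (log2 fold change 0.65, SE 0.09 and adjusted p = 9.90e-05). Clec4n, the receptor Dectin-2, rose by 0.64, with no overlap. The 14 decreases were 8 without NaCl 2.

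Kinases and adaptors downstream of such receptors fell in the greatest share of the 35 pathway lists, which were chosen with earlier results known. Of 34 tested genes of Src family signalling, 17 fell (50%, against 14.9%) and 4 rose (11.8%), with a median of −0.41. Fgr, a Src family kinase of myeloid cells, stood at 85.1, 81.0 and 93.0 CPM and 8.75 and 9.17 CPM (log2 fold change −3.27, SE 0.18 and adjusted p = 7.09e-08). Dok2, an inhibitory adaptor, went from 100.3, 96.0 and 93.5 CPM to 22.9 and 21.3 CPM (log2 fold change −2.13, SE 0.11 and adjusted p = 3.20e-08), though it overlaps Xpo7 on the other strand. Sla, an adaptor that dampens receptor signals, went from 221, 219 and 207 CPM to 64.8 and 56.1 CPM (log2 fold change −1.83, SE 0.10 and adjusted p = 4.84e-08), and Pik3cd, a catalytic subunit of phosphoinositide 3-kinase, from 90.1, 88.6 and 103 CPM to 38.4 and 35.5 CPM (log2 fold change −1.35, SE 0.10 and adjusted p = 1.06e-06). In each of these 4 genes both NaCl libraries were below every library without NaCl.

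The 4 that rose included Shb, an SH2 adaptor, from 2.59, 2.52 and 3.60 CPM to 14.9 and 13.8 CPM (log2 fold change 2.29, SE 0.19 and adjusted p = 2.18e-06), Tec, a kinase, by 1.21, and Vav3, a guanine nucleotide exchange factor, by 1.03, both on the log2 scale. The other, the ubiquitin ligase Cbl, rose by 0.43 and was not called without NaCl 2 (0.32, adjusted p = 0.106). Of the calls in this list, 12 decreases and 3 increases held under each alternative.

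**Figure D4:**
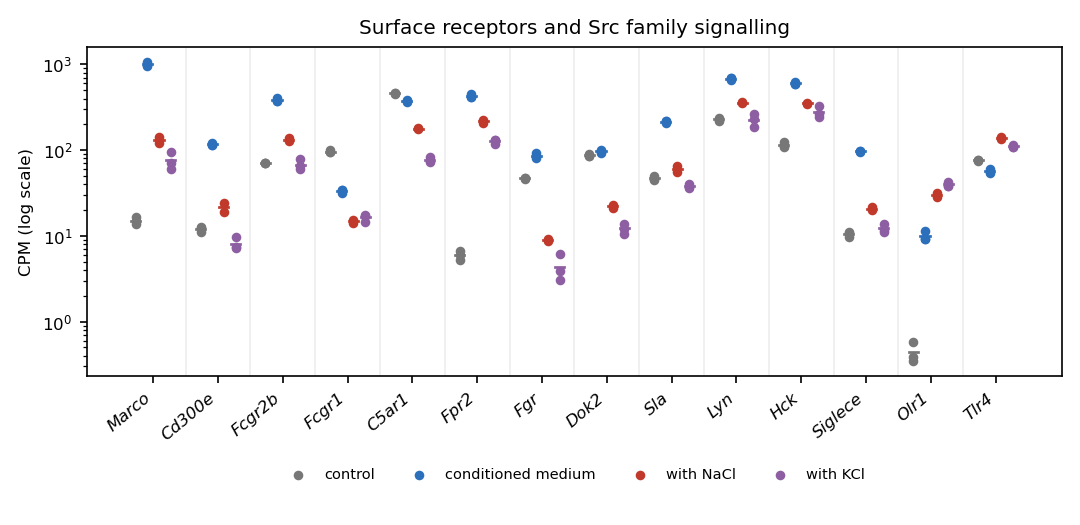
Level (CPM, log scale) of surface receptors and Src family signalling genes, 1 point per library and a line at each group's mean; control grey, conditioned medium alone blue, with NaCl red, with KCl purple. Marco, Fgr, Dok2 and Siglece are lower in the NaCl libraries than in those of conditioned medium alone, and Olr1 and Tlr4 are higher.

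Toll-like receptors and their adaptors rose and fell in equal number, 6 and 6 of 30 tested (20% each, against 13.7% and 14.9% of all genes). Those that rose included 3 receptors: Tlr4, which senses lipopolysaccharide, from 54.7, 55.5 and 59.7 CPM to 133 and 143 CPM (log2 fold change 1.29, SE 0.08 and adjusted p = 1.52e-07), and Tlr7, which senses single-stranded RNA, from 79.2, 79.4 and 84.7 CPM to 178 and 183 CPM (log2 fold change 1.16, SE 0.13 and adjusted p = 3.51e-05). Tlr13 rose by 0.62 and the ubiquitin ligase Traf6 by 0.59 on the log2 scale. Among those that fell were accessory factors. Unc93b1, which escorts the endosomal receptors, went from 437, 435 and 443 CPM to 253 and 259 CPM (log2 fold change −0.78, SE 0.11 and adjusted p = 1.33e-04), and Tifab, which restrains TIFA, went from 20.9, 23.1 and 24.1 CPM to 2.48 and 2.13 CPM (log2 fold change −3.29, SE 0.15 and adjusted p = 9.02e-09). With the length slope as a covariate the list had 6 up and 10 down.

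Of 23 tested genes of MHC class II, costimulation and checkpoint ligands, 6 fell (26.1%, against 14.9% of all genes) and 4 rose (17.4%, against 13.7%). Cd40, the costimulatory receptor, fell from 209, 205 and 194 CPM to 71.9 and 58.7 CPM (log2 fold change −1.63, SE 0.14 and adjusted p = 2.96e-06), and March1, the ubiquitin ligase that removes MHC class II from the surface, from 137, 143 and 141 CPM to 38.3 and 37.2 CPM (log2 fold change −1.89, SE 0.09 and adjusted p = 1.45e-08). Cd28, a costimulatory receptor known from T cells, rose from 3.33, 2.39 and 3.12 CPM to 14.5 and 19.0 CPM (log2 fold change 2.51, SE 0.19 and adjusted p = 1.00e-06), and it was higher in each NaCl library. Of 8 listed T and NK cell markers, Cd8a and Nkg7 had 0 counts in all 5 libraries and Cd3e had 0 in 4 of them and 3 in NaCl 2. Cd3g had 0 counts in the 3 libraries without NaCl and 5 and 3 with it. Trac had 1, 1 and 2 counts without NaCl and 6 and 2 with it. Ncr1 had 0, 0 and 1 against 1 and 3, and Klrb1c 0, 1 and 2 against 3 and 2. Cd4, which macrophages can also express and the list's only tested gene, had 100, 142 and 175 counts without NaCl and 186 and 177 with it, and was not called. The part of T cells in the Cd28 values was not tested. Tnfsf4, the OX40 ligand, rose by 1.38. The 6 decreases were 10 with the length slope as a covariate.

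Of 23 tested genes of class I presentation, 6 were lower (26.1%, against 14.9% of all genes) and 3 higher (13%, against 13.7%), with a median of 0.02. Psmb9, a subunit of the immunoproteasome, went from 29.9, 28.9 and 29.3 CPM to 14.9 and 12.3 CPM (log2 fold change −1.11, SE 0.14 and adjusted p = 5.64e-05), and its neighbour Tap1, the peptide transporter, from 59.4, 59.5 and 65.5 CPM to 39.4 and 33.2 CPM (log2 fold change −0.76, SE 0.12 and adjusted p = 4.68e-04). These 2 genes overlap on opposite strands, so each may hold reads of the other. Tap2, the partner of Tap1, fell by 0.69 and H2-M3, a nonclassical class I gene, fell by 0.76 on the log2 scale. H2-Q4 rose by 0.62, with the caution that class I genes share sequence. The counts were 4 down and 1 up without NaCl 2, 6 and 5 with DESeq2, 6 and 6 with the length slope as a covariate, and 7 and 8 in a fit of the 2 groups alone.

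Of 25 tested genes that make or take up cholesterol, 8 fell (32%) and 1 rose (4%), with a median of −0.17. Pmvk, a mevalonate pathway kinase, went from 38.8, 36.0 and 34.0 CPM to 19.0 and 18.03 CPM (log2 fold change −0.97, SE 0.10 and adjusted p = 1.64e-05), and Mvk, the kinase before it, from 21.6, 17.8 and 16.3 CPM to 8.42 and 8.02 CPM (log2 fold change −1.17, SE 0.16 and adjusted p = 1.01e-04). The increase was Acat2 (0.63), which joins acetyl groups at the start of the pathway. Of 20 tested LXR targets and lipid handling genes, 6 rose (30%) and 2 fell (10%).

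Mylip, the LXR target that degrades the low-density lipoprotein receptor, rose from 61.6, 64.4 and 66.5 CPM to 182 and 199 CPM (log2 fold change 1.57, SE 0.09 and adjusted p = 1.19e-07), and Abcg1, a cholesterol exporter, from 86.0, 88.6 and 87.4 CPM to 160.4 and 189.7 CPM (log2 fold change 1.00, SE 0.12 and adjusted p = 3.42e-05). Nr1h3, which encodes LXR alpha itself, fell from 171, 169 and 167 CPM to 60.4 and 56.0 CPM (log2 fold change −1.54, SE 0.10 and adjusted p = 2.90e-07). For all 3 genes the groups did not overlap.

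The ATF4 and endoplasmic reticulum stress lists showed few calls. Of 26 tested ATF4 targets, 4 rose (15.4%) and 3 fell (11.5%). Slc3a2, the shared chain of amino acid exchangers, rose by 0.69, and Atf3, a stress-induced factor, by 0.45. Of 21 tested endoplasmic reticulum stress genes, 3 rose (14.3%) and 2 fell (9.52%), with Herpud1 falling by 0.67. These shares were close to those of all genes. Without NaCl 1 and without NaCl 2 the ATF4 list had 2 up and 0 down, and 2 up and 1 down. It had 4 and 1 without conditioned medium library 1, and 2 and 2 without library 3. The endoplasmic reticulum list had 1 and 1 without NaCl 1, and 0 and 1 without NaCl 2, and library totals in place of TMM gave 1 and 3.

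Of 18 tested heat shock chaperones, 5 rose (27.8%) and 1 fell (5.56%). Hspa1b, the inducible Hsp70, stood at 11.2, 8.65 and 10.1 CPM and 27.3 and 27.6 CPM (log2 fold change 1.46, SE 0.16 and adjusted p = 2.62e-05), although its near-identical copy Hspa1a makes the split between them uncertain. Dnajb4, a co-chaperone, rose by 0.81. Both genes were higher in each NaCl library. In a fit of the 2 groups alone the list had 12 up and 1 down, and with the length slope as a covariate 7 and 1. The 5 increases were 3 with any one conditioned medium library or NaCl 2 left out, and 2 without NaCl 1.

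Of 25 tested genes of glutamine, amino acid and TCA cycle metabolism, 5 rose (20%) and 6 fell (24%). Glul, the glutamine synthetase, went from 199, 187 and 189 CPM to 493 and 525 CPM (log2 fold change 1.41, SE 0.08 and adjusted p = 1.19e-07), and Idh1, the cytosolic isocitrate dehydrogenase, from 176, 172 and 168 CPM to 369 and 376 CPM (log2 fold change 1.11, SE 0.12 and adjusted p = 2.11e-05). Fh1, the fumarase, fell by 0.62, and Sdhb, a subunit of succinate dehydrogenase, fell by 0.53 on the log2 scale, while Ogdh and Pcx of the same list rose. In glycolysis, 5 of 25 tested genes rose (20%, against 13.7% of all genes) and 3 fell (12%, against 14.9%). Slc2a1, the glucose transporter, rose by 0.78, and Pdk1, which blocks pyruvate entry into mitochondria, fell from 55.1, 55.4 and 58.1 CPM to 27.3 and 27.4 CPM (log2 fold change −1.04, SE 0.10 and adjusted p = 8.30e-06). With library totals in place of TMM this list had 5 up and 6 down.

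Of 43 tested nuclear-encoded subunits of the respiratory chain none rose and 4 fell (9.3%), and of 11 tested mitochondrial-encoded subunits 0 were called. At an unadjusted p under 0.05 edgeR gave 0 higher and 7 lower nuclear-encoded genes and 0 mitochondrial-encoded ones, and DESeq2 called 3 lower and 0 in turn. With the length slope as a covariate, 10 nuclear-encoded subunits rose and 4 fell. The 4 decreases were 15 in a fit of the 2 groups alone, 7 with library totals or with no low-count filter, 2 without conditioned medium library 1 or NaCl 1 and 1 without NaCl 2. Cytosolic ribosomal proteins had 1 of 37 tested genes called, Rpl27 (log2 fold change 0.53, SE 0.12 and adjusted p = 0.00528), but 20 rose and 2 fell with that covariate. Ribosome biogenesis had 3 of 26 genes higher (11.5%) and 0 lower (0 also at an unadjusted p under 0.05 in edgeR, and 0 by DESeq2). With the length slope as a covariate it had 6 higher and 2 lower, and in a fit of the 2 groups alone 9 and 0.

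Actin and adhesion genes fell more often than they rose, 16 (38.1%) against 6 (14.3%) of 42 tested, with a median of −0.24. Coro1a, an actin regulator of leukocytes, went from 319.8, 305 and 295 CPM to 128 and 123 CPM (log2 fold change −1.29, SE 0.12 and adjusted p = 5.96e-06), though it overlaps Bola2 on the other strand. Marcksl1, a membrane-bound actin regulator, went from 654, 622 and 584 CPM to 229.9 and 202 CPM (log2 fold change −1.52, SE 0.12 and adjusted p = 2.14e-06), and Vasp, which extends filaments, from 1016, 1014 and 961 CPM to 662 and 604 CPM (log2 fold change −0.66, SE 0.08 and adjusted p = 3.71e-05). Each was lower in both NaCl libraries. Ezr, which ties actin to the membrane, rose from 128, 128 and 136 CPM to 300.4 and 298 CPM (log2 fold change 1.20, SE 0.16 and adjusted p = 1.15e-04), and the small GTPase Rhob rose by 0.95. The 6 increases were 3 without NaCl 2.

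Immediate-early factors of the AP-1, EGR, NR4A and KLF families fell in 8 of 26 tested genes (30.8%) and rose in 6 (23.1%). Fos, a subunit of AP-1, stood at 75.0, 83.4 and 72.3 CPM without and 17.8 and 17.2 CPM with NaCl (log2 fold change −2.13, SE 0.10 and adjusted p = 2.35e-08), and Ier2 and Nr4a1 fell by 1.16 and 1.05. Mafk, a small MAF protein that pairs with NRF2, rose from 36.7, 37.8 and 37.0 CPM to 73.8 and 75.7 CPM (log2 fold change 1.01, SE 0.10 and adjusted p = 7.25e-06). Without NaCl 2 the counts were 5 down and 5 up. Of 21 tested MAPK phosphatases and RNA decay factors, 8 fell (38.1%) and 4 rose (19%). Zfp36, the tristetraprolin that destabilises cytokine RNAs, fell from 362, 357 and 357 CPM to 224 and 201 CPM (log2 fold change −0.75, SE 0.09 and adjusted p = 3.40e-05), and Dusp2, a phosphatase of MAP kinases, fell by 1.11. Without NaCl 2 this list had 5 down and 2 up.

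Lipid mediator genes rose in 8 of 21 tested (38.1%) and fell in 4 (19%), with a median of 0.23. Ptgs2, the inducible cyclooxygenase COX-2, went from 961, 975 and 962 CPM to 2005 and 2157 CPM (log2 fold change 1.11, SE 0.13 and adjusted p = 4.38e-05), and Hpgd, which breaks prostaglandins down, from 5.52, 6.07 and 5.87 CPM to 13.6 and 12.0 CPM (log2 fold change 1.13, SE 0.12 and adjusted p = 1.59e-05). The leukotriene receptor Cysltr1 fell from 47.0, 45.6 and 45.3 CPM to 15.1 and 20.3 CPM (log2 fold change −1.38, SE 0.13 and adjusted p = 6.87e-06). The making and the breaking enzyme thus both rose. The increases numbered 5 without either NaCl library.

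Growth factors and proteases rose in 9 of 28 tested (32.1%) and fell in 2 (7.14%). Mmp12, the macrophage elastase, went from 594, 606 and 618 CPM to 1338 and 1345 CPM (log2 fold change 1.15, SE 0.09 and adjusted p = 1.47e-06), Mmp13, a collagenase, rose by 0.86, and Pdgfa, a growth factor, went from 18.2, 20.4 and 18.8 CPM to 42.8 and 48.2 CPM (log2 fold change 1.25, SE 0.12 and adjusted p = 1.01e-05). Mmp9, a gelatinase, fell from 48.2, 46.9 and 47.5 CPM to 25.1 and 22.3 CPM (log2 fold change −1.002, SE 0.11 and adjusted p = 1.94e-05). Vegfa, the vascular growth factor, was at 36.0, 34.9 and 36.2 CPM and 30.5 and 31.2 CPM and was not called (log2 fold change −0.21, SE 0.09 and adjusted p = 0.103), though it was in a fit of these 2 groups alone (−0.21, adjusted p = 0.0482) and with the length slope as a covariate (−0.26, adjusted p = 0.0363). The increases numbered 5 without NaCl 2.

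**Figure D5:**
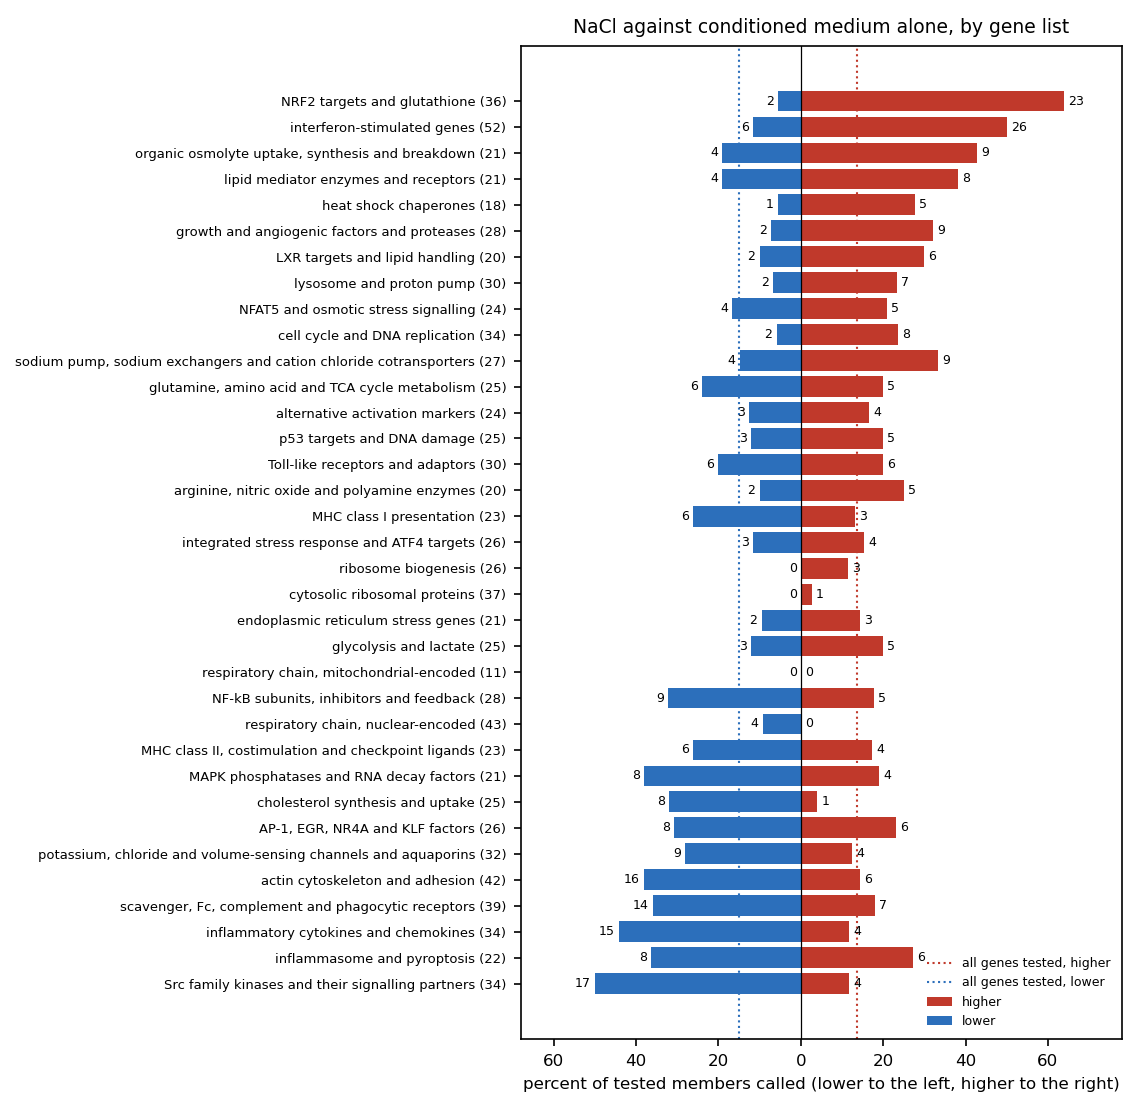
Share of tested members of each of the 35 pathway lists that rose (red, right) or fell (blue, left) with NaCl, with the number of genes at each bar's end and the tested members in brackets; dotted lines mark the shares of all genes, 13.7% and 14.9%. The lists are ordered by their median log2 fold change: NRF2 targets stand at the top with 23 of 36 higher, and Src family signalling at the bottom with 17 of 34 lower.

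Lysosome, p53 and cell cycle genes moved in smaller numbers, beside the shares of all genes of 13.7% up and 14.9% down. Of 30 tested lysosome and proton pump genes, 7 rose (23.3%) and 2 fell (6.67%), led by the proton pump subunit Atp6v1a (log2 fold change 0.66, SE 0.07 and adjusted p = 2.93e-05). Of 25 tested p53 targets, 5 rose (20%) and 3 fell (12%): Plk2, a kinase, went from 309.9, 301 and 316 CPM to 691 and 712 CPM (log2 fold change 1.18, SE 0.08 and adjusted p = 6.84e-07), and Rrm2b, a ribonucleotide reductase subunit, fell by 1.22. Of 34 tested cell cycle genes, 8 rose (23.5%) and 2 fell (5.88%). Mcm6, a subunit of the replicative helicase, rose by 0.56, and Ccnd1, cyclin D1, fell by 1.12. The 7 lysosome increases were 4 without conditioned medium library 2, 3 without library 3, and 2 without either NaCl library. With library totals in place of TMM the lysosome list had 3 up and 3 down, and the cell cycle list 6 and 5. In a fit of the 2 groups alone the lysosome list had 16 up and 6 down, and the p53 list 9 and 4. The 8 cell cycle increases were 4 without NaCl 1 and 5 without NaCl 2.

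Markers of other cells were low or changed in few genes. The summed neutrophil list was 66.8 to 70.6 CPM with NaCl and 175 to 190 CPM without, of which the greater part was Csf3r, the receptor of granulocyte colony-stimulating factor, at 36.0 and 40.6 CPM and 149.8, 148 and 165 CPM (log2 fold change −2.01, SE 0.13 and adjusted p = 2.11e-07). Of the 12 listed genes, Ly6g, Elane, Retnlg and Cxcr2 had 0 counts in each of these libraries. S100a8 was present, with 279, 266 and 248 counts without NaCl and 419 and 322 with it, as was Mmp8, with 58, 71 and 96 against 94 and 122, and neither was called. Macrophage markers had 3 of 12 genes lower, among them Fcgr1 and Adgre1, and none higher; a fit of the 2 groups alone gave 6 lower and 2 higher. Csf1r, the receptor of the macrophage growth factor CSF1, stood at 1359, 1366 and 1516 CPM without and 1851 and 2023 CPM with NaCl, with no overlap, and was not called (log2 fold change 0.45, SE 0.21 and adjusted p = 0.132). It was called as higher with no low-count filter (0.45, adjusted p = 4.20e-05) and in the fit of the 2 groups (0.46, adjusted p = 2.86e-07). Xcr1, a dendritic cell chemokine receptor, rose (log2 fold change 1.73, SE 0.40 and adjusted p = 0.0056) and was not called without NaCl 1 (1.43, adjusted p = 0.0721), while Flt3 had 1 to 4 counts in each of the 5 libraries. Of the 4 dendritic cell markers tested, 1 rose and 3 were not called, with a median log2 fold change of 0.89. Ccr7 had 26, 16 and 12 counts without NaCl and 35 and 30 with it. Clec9a had 1, 3 and 6 against 10 and 6, and Zbtb46 16, 40 and 28 against 30 and 39. Single genes of other lists rose slightly: Mcpt8 of mast cells and basophils (0.57, SE 0.18 and adjusted p = 0.0315), Pdgfrb of stroma (0.44, SE 0.13 and adjusted p = 0.0249) and Mitf of the melanoma list (0.36, SE 0.10 and adjusted p = 0.0162), a factor that macrophages also express. Each of the 3 lost its call without NaCl 1 (adjusted p = 0.0984, 0.108 and 0.0532) and without NaCl 2 (0.155, 0.124 and 0.144). The other neutrophil gene that fell, Camp (−1.38, SE 0.41 and adjusted p = 0.0228), lost its call without either NaCl library as well (−1.18, adjusted p = 0.164, and −1.60, adjusted p = 0.0814). No T, B or erythroid marker that could be tested was called or had an unadjusted p under 0.05 in edgeR, and their part, and that of the others, in the results was not tested.

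KCl at the same concentration is the comparison in which the cation differs. Of 14519 genes, 4591 differed between NaCl and KCl (31.6%), 2358 higher with NaCl (16.2%) and 2233 lower (15.4%). That number rests on the shared spread of 4 groups and on single libraries: it was 8 in a fit of these 2 groups alone (4151 at an unadjusted p under 0.05), 283 with the length slope as a covariate, 3030 without KCl 1, 6996 without KCl 3, 2162 without NaCl 1 and 1012 without NaCl 2. The length slopes with KCl were −0.152, −0.187 and −0.018, all below those with NaCl. With library totals in place of TMM, 69.9% of the calls were higher with NaCl, against 51.4%, and the median of all genes was 0.18 against 0.04. The KCl and NaCl comparisons with conditioned medium share its 3 libraries, so their values are given side by side only.

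Slc5a3, Slc6a12 and Slco4a1 stood above conditioned medium alone with both salts. Slc5a3 was at 136, 145 and 104 CPM with KCl, Slc6a12 at 72.6, 64.2 and 84.5 CPM, and Slco4a1 at 279, 244 and 326 CPM. Between the salts Slc5a3 differed by −0.31 (SE 0.13 and adjusted p = 0.085) and Slco4a1 by −0.04 (SE 0.13 and adjusted p = 0.841) on the log2 scale, neither called. Slc6a12 was higher with NaCl by 0.60 (SE 0.10 and adjusted p = 0.00208), a call that did not hold under each alternative.

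The call held in all alternatives but the fit of these 2 groups for 133 genes, 96 higher with NaCl. Several were genes that both salts lowered, less so with NaCl. Il1b was at 738, 715 and 739.5 CPM with KCl, below the NaCl libraries, which in turn were below conditioned medium alone (NaCl minus KCl 1.38, SE 0.09 and adjusted p = 5.20e-06). C5ar1 was at 75.6, 82.7 and 73.3 CPM with KCl (1.21, SE 0.08 and adjusted p = 4.25e-06), and March1 at 13.2, 13.7 and 15.2 CPM (1.42, SE 0.09 and adjusted p = 4.25e-06). These 3 were also called in the fit of the 2 groups. Tifab was at 0.564, 0.831 and 0.850 CPM with KCl (1.62, SE 0.22 and adjusted p = 7.31e-04) and Themis2, a signalling adaptor, at 2.25, 1.94 and 2.35 CPM (1.74, SE 0.15 and adjusted p = 5.92e-05). Tnf was at 2303, 2375 and 2184 CPM with KCl and higher with NaCl (0.48, SE 0.07 and adjusted p = 0.00126). Slc38a2 and Casp4 were lower with NaCl than with KCl, with log2 differences of −0.55 (SE 0.09 and adjusted p = 0.002) and −0.44 (SE 0.08 and adjusted p = 0.002).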

How the data were processed

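Total RNA of macrophages was sequenced, and the deposited file holds raw counts per Ensembl gene made by the authors. The submitters' processing notes name DESeq2 1.30.1 with no role; for the aligner, counter, genome build and strand, nothing is given in the sources used here. Of 55401 identifiers 28418 were 0 throughout, and 260 without a symbol held 0.01215% of counts. Groups came from the treatment labels. Symbols, positions and transcript lengths came from GENCODE M21 (GRCm38), and promoter windows from RefSeq (GRCm38.p6).

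The counts were tested with edgeR 4.0.16 (R 4.3.3, limma 3.58.1): low-count filter by group, TMM scaling, 1 robust quasi-likelihood fit of the 11 C57BL/6J libraries with 4 group means, and Benjamini-Hochberg adjustment over 14519 genes at a threshold of 0.05. SE is the log2 fold change over the root of F. The 2 means compared rest on 2 and 3 libraries of 15458703 to 19391623 counts. The spread behind each SE and p came from all 11 libraries, those of control and KCl included. No 2 libraries of a group agreed within sampling noise, and the KCl libraries differed most. Chi-square per degree of freedom over genes was 4.73 for the NaCl pair and 2.61 to 5.49 in conditioned medium alone. In the control group it was 2.08 to 5.75, and with KCl it was 29.6 to 91.8. The script was tested on simulated data. Alternatives were DESeq2 1.42.0, other scalings and filters, a fit of only the groups compared, a replicate block, the length slope (of log2 level on log2 transcript length, over genes above 10 CPM) as a covariate and leaving out each library.

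Members and lists were chosen with earlier results of these data known. Named genes were a fixed set (Kcnj2, Nfat5, Sgk1, Nos2, Arg1, Mrc1, Tnf, Il1b, Il6, Vegfa), the 15 highest and 15 lowest fold changes among called genes above 10 CPM whose libraries did not overlap, and up to 4 called genes per list and direction by p. Gclm, Txnrd1, Prdx1, Slc44a2, Igtp, Hmox1 and Srxn1 were added after their values were seen. A few genes that the rule names are not reported here.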

Additional observations from a re-analysis of the deposited data

How the results depend on the processing

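The number of genes changed by NaCl against conditioned medium alone (4161) was 6245 in a fit of only these 2 groups, which tested 13378 genes, and 2280 to 3468 when each library of the 2 groups was left out in turn. It stayed within 1.5 times under DESeq2 (4376), relative log expression factors (4199), library totals (4021), no filter (4276), a stricter filter (4156) and the length slope (5304). Against KCl (4591) it was 8 in a fit of only the 2 groups, 283 with the length slope as a covariate and 1012 to 6996 with each library left out. The cause was not tested. Replicate numbers are shared by the groups, but nothing says that they mark shared animals or days: 10 of 15 pairs with the same number and 10 of 30 others correlated above 0.1, and a library's best match carried its own number in 15 of 30 cases. With a replicate block the counts were 4712 and 5811; it also called 10 nuclear-encoded respiratory chain genes lower in place of 4, and mt-Co1 (0.27, adjusted p = 0.0495) and Csf1r (0.59, adjusted p = 0.0147) higher. Of 311 named genes none changed direction with a call, and the number that lost their call was 49 without NaCl 1, 52 without NaCl 2, 21 to 24 without a conditioned medium library and at most 12 under each other setting. With 2 NaCl libraries the spread of that group is poorly known and is shared with 3 other groups in the fit.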

Other observations

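Genes ranked 16 to 30 by fold change in each direction, a rule added after the data were seen, held further receptors, signalling genes and enzymes. Among those that rose, Il15, a cytokine that sustains natural killer cells, stood at 11.2, 14.4 and 13.4 CPM in conditioned medium alone and 43.5 and 36.7 CPM with NaCl (log2 fold change 1.63, SE 0.13 and adjusted p = 1.29e-06), and Cgas, the cytosolic DNA sensor, at 8.78, 10.5 and 9.84 CPM and 28.3 and 31.8 CPM (log2 fold change 1.63, SE 0.11 and adjusted p = 4.82e-07). For both genes the NaCl libraries were above the others, as the ranking rule required. Ndrg2 rose by 1.59 on the log2 scale. Slc6a9, a glycine transporter that also counts among the osmolyte genes, rose (log2 fold change 1.71, SE 0.53 and adjusted p = 0.0317) and was not called by DESeq2 (1.73, adjusted p = 0.0716), without NaCl 1 (1.79, adjusted p = 0.0867), without NaCl 2 (1.63, adjusted p = 0.132), without conditioned medium library 1 or 2 or with the length slope as a covariate (0.84, adjusted p = 0.0531).

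Among those that fell, Siglece, an inhibitory receptor for sialic acid, went from 97.7, 96.3 and 97.7 CPM to 19.9 and 21.8 CPM (log2 fold change −2.22, SE 0.11 and adjusted p = 3.11e-08), and P2ry6, a receptor for the nucleotide UDP, from 19.3, 19.4 and 21.9 CPM to 5.72 and 3.52 CPM (log2 fold change −2.12, SE 0.17 and adjusted p = 1.75e-06). Itga9, an integrin subunit, fell from 44.0, 49.2 and 50.7 CPM to 12.4 and 10.4 CPM (log2 fold change −2.07, SE 0.15 and adjusted p = 7.30e-07), and Kctd12 from 881, 918 and 907 CPM to 238 and 237 CPM (log2 fold change −1.93, SE 0.08 and adjusted p = 7.30e-09). In each of these genes every NaCl library was below every library of conditioned medium alone, which the ranking rule required. Of the 15 named decreases with the largest fold change, Fgl2, a fibrinogen-like secreted protein, went from 55.3, 55.2 and 50.2 CPM to 7.26 and 7.47 CPM (log2 fold change −2.86, SE 0.12 and adjusted p = 7.30e-09), Slc28a2, a sodium-coupled nucleoside carrier, from 73.2, 69.4 and 70.8 CPM to 14.5 and 10.1 CPM (−2.53, SE 0.14 and adjusted p = 7.21e-08), and Tnfrsf13b, the receptor TACI, from 31.5, 27.1 and 31.2 CPM to 5.56 and 5.34 CPM (−2.45, SE 0.19 and adjusted p = 1.24e-06).

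Scgb1a1, a secretory protein of airway cells, was at 1.46, 1.23 and 0.672 CPM in conditioned medium alone, 1.82 and 1.03 CPM with NaCl and 17.2, 13.2 and 15.9 CPM with KCl. Scgb1a1 was called as lower with NaCl than with KCl in the fit of those 2 groups. Sftpc, a surfactant protein gene, was also called lower with NaCl than with KCl in the fit of 11 libraries (log2 difference −9.86, SE 1.13 and adjusted p = 7.31e-04). Sftpc was not among the calls of the fit of those 2 groups. The source of both transcripts, and their part in the KCl comparison, was not tested.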
